A study of Mus musculus with 34 samples.

Results

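The mitochondrial genome encodes 37 genes, and all of them were followed here across mouse embryonic stem (ES) cell lines that lack the MTA subunits of the NuRD chromatin remodelling complex. The members are the genes whose mouse symbol begins with mt-. They comprise 13 coding genes, 2 ribosomal RNA (rRNA) genes and 22 transfer RNA (tRNA) genes, and are 37 of the 48709 genes listed in the 16 libraries of control and triple-mutant cells. The 18 libraries of single-mutant cells and their parents list 22018 genes, among them the 13 coding genes and none of the rRNA or tRNA genes. Bulk RNA-seq was performed on ES cells of strain 129/Ola. Mta123KO cells lack Mta1, Mta2 and Mta3, and were derived by replacing most of Mta2 in Mta1-deleted, Mta3-floxed cells, with a puromycin cassette on one Mta2 allele, followed by Cre deletion of Mta3. The Control cells already carry 1 deleted Mta1 allele and floxed Mta3 alleles. Each of these 2 genotypes has 4 libraries per culture, numbered 1_1, 1_2, 2_1 and 2_2. The first number was taken as the cell line, which the labels do not spell out. The libraries came from cells labelled as kept in 2i/LIF (2iL, the medium with 2 kinase inhibitors and the cytokine LIF) or from cells labelled as kept for 48 h without inhibitors or LIF in N2B27 medium. The single mutants were Mta1_del/del and Mta3_del/del cells, compared with flox/flox cells of the same gene, and Mta2_KO cells, compared with Mta2_WT cells. These are all labelled as grown in 2iL, with 3 libraries per genotype.

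Mitochondrial DNA is transcribed from both strands into long precursors by a dedicated RNA polymerase, Polrmt, with the help of the DNA-packaging factor Tfam. The tRNAs lie between most rRNA and coding genes, and cutting the precursors at the tRNA ends releases the rRNAs and mRNAs. The coding genes supply core subunits of respiratory complexes I, III and IV and of the ATP synthase (complex V), while the polymerase, the mitochondrial ribosomal proteins and all RNA-processing enzymes are encoded in the nucleus.

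The 16 control and triple-mutant libraries held between 37855790 and 57602285 gene counts, and the single-mutant libraries between 13105820 and 40613585. Between 28208 and 83281 counts per library fell on the tRNA genes and between 591898 and 1539024 on the coding genes of the former set. Mta2 was listed at 109 to 128 CPM (counts per 1000000 gene counts) in the Control libraries labelled 2iL and at 4.89 to 8.93 CPM in the Mta123KO libraries of that label. Mta1 was at 34.3 to 49.1 and 19.6 to 30.6 CPM, and Mta3 at 58.1 to 73.7 and 14.2 to 24.3 CPM. The culture labels go against the cell state. The 7 markers of naive ES cells summed to 154 to 239 CPM in Control libraries labelled 2iL and to 3644 to 3980 CPM in those labelled 48 h, whereas the 6 markers of cells leaving that state summed to 915 to 1424 CPM and 78.4 to 90.6 CPM. In Mta123KO the naive markers summed to 420.3 to 539 CPM under the 2iL label and 1850.0 to 2868 CPM under the 48 h label. The deposited file names give the opposite culture to the labels. Groups are therefore called by their label. Exchanging the labels would exchange the 2 genotype comparisons below, and turn round the culture changes and the interaction. The labels do not say which libraries came from separate cultures, so p-values measure the spread between these libraries, which may be technical, and may be too small with 2 lines per genotype. Values by line are given beside them.

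The sequences below are shown for the genes on which the counting depends most, in GRCm38 coordinates from the GENCODE vM21 transcripts. Capitals mark bases shared with a neighbouring annotated gene. mt-Tw (tRNA for tryptophan, chrM:4950-5016, plus strand) follows mt-Nd2 and shares 2 bases with it. mt-Ti (isoleucine, chrM:3706-3774, plus strand) shares 5 bases with mt-Nd1 and mt-Tq together. mt-Ts1 (serine, chrM:6870-6938, minus strand) lies opposite the end of mt-Co1 and shares 3 bases with it. mt-Tt (threonine, chrM:15289-15355, plus strand) shares none, and is shown as one of the few members not called in a genotype comparison. mt-Atp8 (chrM:7766-7969, plus strand) shares its last 43 bases with mt-Atp6. The last 60 bases of mt-Nd6 (chrM:13552-14070), the one coding gene of the minus strand, include 14 bases that pair with the end of mt-Nd5.
mt-Tw: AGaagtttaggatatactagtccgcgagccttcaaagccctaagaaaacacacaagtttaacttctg
mt-Ti: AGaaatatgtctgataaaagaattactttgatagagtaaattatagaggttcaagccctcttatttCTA
mt-Ts1: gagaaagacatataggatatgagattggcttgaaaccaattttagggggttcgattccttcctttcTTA
mt-Tt: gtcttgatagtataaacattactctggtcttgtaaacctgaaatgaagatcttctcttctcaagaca
mt-Atp8: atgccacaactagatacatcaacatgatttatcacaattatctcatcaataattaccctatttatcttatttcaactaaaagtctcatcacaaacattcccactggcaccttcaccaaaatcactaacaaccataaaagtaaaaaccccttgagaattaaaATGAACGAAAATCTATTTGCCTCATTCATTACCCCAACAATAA
mt-Nd6: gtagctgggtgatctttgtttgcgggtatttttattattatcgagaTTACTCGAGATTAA
A read that covers such a shared stretch, or a whole tRNA of 59 to 75 bases together with part of its neighbour, can be given to either gene or to neither. RNA was purified on columns, which hold RNAs as short as a mature tRNA poorly. Whether the counts on tRNA genes came from mature tRNAs or from longer RNAs was not tested.

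All 13 coding genes rose in Mta123KO cells relative to Control cells under both culture labels. Together they took 1.37 to 1.47% of gene counts in Control libraries labelled 2iL and 2.07 to 2.42% in Mta123KO libraries of that label. By library, in the order line 1 (2 libraries) and line 2 (2 libraries), the Control shares labelled 2iL were 1.45, 1.47, 1.47 and 1.37%, and the Mta123KO shares were 2.29, 2.07, 2.42 and 2.14%. The ranges did not overlap, and the means were 1.44 ± 0.0498% and 2.23 ± 0.155% (SD, n = 4), a ratio of 1.55. The lines of a genotype lay close together, at means of 1.46% and 1.42% in Control and 2.18% and 2.28% in Mta123KO.

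Under the 48 h label the Control libraries held 1.91, 1.56, 1.63 and 1.7% and the Mta123KO libraries 3.4, 3.14, 2.37 and 2.53% of gene counts on coding genes. Again no Control library reached a Mta123KO library, with means of 1.7 ± 0.151% and 2.86 ± 0.487% (SD, n = 4) and a ratio of 1.68. Here the Mta123KO lines stood apart, at 3.27% in line 1 and 2.45% in line 2. Exact two-sided permutation tests of the shares gave p = 0.0286 for both labels, the smallest p that 4 against 4 libraries allow, and 0.0776 after adjustment over 19 such tests, which does not pass 0.05. In bulk RNA such a share cannot tell apart more mitochondrial RNA per cell, less other RNA per cell, and a change in the kinds of cells present. Counts on protein-coding genes made up 63.9 to 68.4% of gene counts across the 16 libraries, and the Control group labelled 2iL, with the lowest mitochondrial share, also had the lowest protein-coding share (63.9 to 65.7%, against 65.3 to 67.2% in Mta123KO). With protein-coding counts as denominator the ratios were 1.53 and 1.72.

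**Figure D1:**
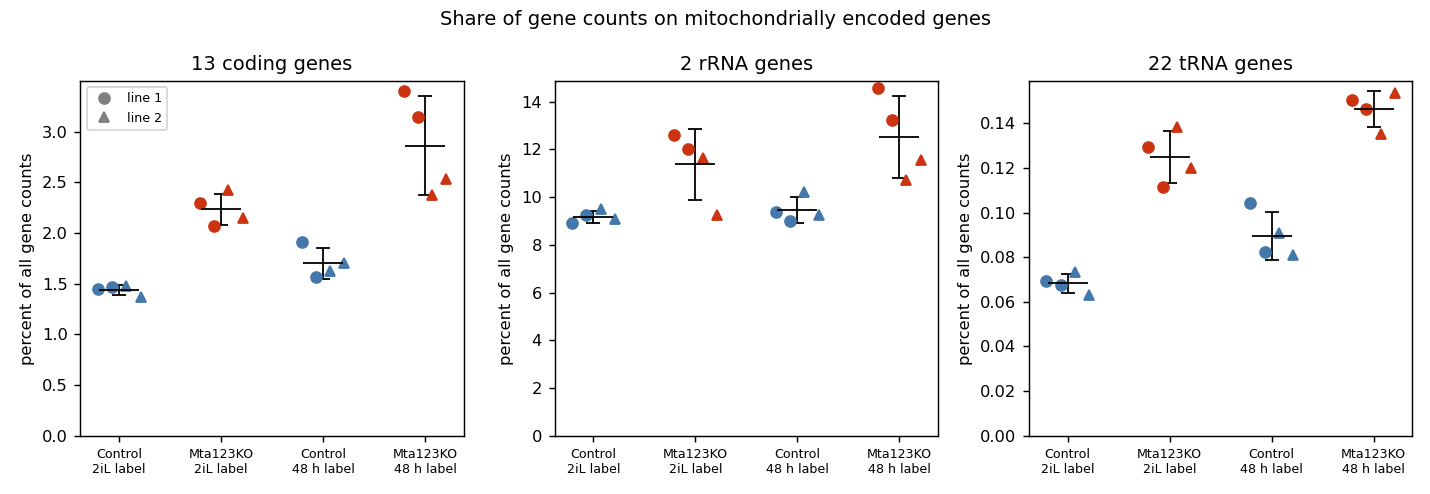
Percent of all gene counts on the coding, rRNA and tRNA genes in each of the 16 libraries (circles line 1, triangles line 2, bars mean ± SD of 4 libraries). Coding and tRNA shares of Mta123KO libraries lie above every Control library of the same label, and the rRNA shares overlap under the 2iL label.

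Tested gene by gene with edgeR's quasi-likelihood test, with Benjamini-Hochberg adjustment over all genes, 13 of 13 coding genes were called higher (adjusted p under 0.05) under the 2iL label, where 27.1% of the 21651 genes tested were called higher and 24.2% lower. With the 48 h label 13 of 13 were called higher, against 26.6% higher and 23.4% lower of 21079 genes. The median log2 fold change of the coding genes was 0.78 under the 2iL label and 1.01 under the 48 h label, while the median of all genes tested was 0.01 in both. An added requirement of a log2 fold change above 1 was met by 2 coding genes (mt-Nd1 and mt-Nd2) under the 2iL label and by 8 under the 48 h label, where 13.2% and 14.1% of all genes passed it. In 13 and 12 of the coding genes, respectively, every Mta123KO library had a higher CPM than every Control library, as did 26.1% and 24.1% of all genes tested. With both libraries of a line added up, which leaves 2 samples per group, 8 and 7 of the 13 were still called. Calls higher over all genes fell in that refit too, to 2253 of 24467 and 2568 of 23899. Without 1 line of 1 genotype, 10 to 13 coding genes were called under the 2iL label and 11 to 13 under the 48 h label. Over all genes, 4194 to 7171 and 4142 to 6585 were then called higher. Scaling by the ERCC spike-ins moved the median of all genes by -0.18 under the 48 h label, where the coding median became 0.81 and 12 of 13 were called. All 13 were called with it under the 2iL label. ERCC scaling called 4996 of all genes higher under the 2iL label and 3442 under the 48 h label.

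The 7 complex I genes had median log2 fold changes of 0.81 under the 2iL label and 1.15 under the 48 h label, against 0.41 and 0.85 for the 3 complex IV genes. mt-Nd2, a subunit of the membrane arm of complex I, had the highest fold change of the coding genes under both labels. It was listed at 698, 614, 753 and 639 CPM in Control and 1666, 1474, 1924 and 1668 CPM in Mta123KO libraries labelled 2iL. Every mutant library lay above every Control library (log2 fold change 1.31 ± 0.10, adjusted p = 1.64e-05, edgeR). In libraries labelled 48 h its levels were 1066, 729.8, 900.1 and 739.5 CPM in Control and 2390.2, 2155, 1843 and 2059 CPM in Mta123KO (log2 fold change 1.32 ± 0.15, adjusted p = 0.000112, edgeR). Again the groups did not overlap. The complex I genes ranged from 0.71 to 1.31 under the 2iL label and from 1.0 to 1.32 under the 48 h label. mt-Nd1, also of the membrane arm, rose by 1.03 and 1.01 on the log2 scale.

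At the other end stood mt-Co1, the catalytic subunit of cytochrome c oxidase (complex IV). Its Control libraries labelled 2iL held 6586, 6919, 6508 and 6039.8 CPM and its Mta123KO libraries 8532, 7756, 9347 and 8439.6 CPM. Each mutant library lay above each Control library (log2 fold change 0.38 ± 0.09, adjusted p = 0.00558, edgeR). The call was lost without Control line 2 (edgeR adjusted p = 0.0845) or with lines summed (0.122). With the 48 h label the values were 8525, 7307, 7269 and 8213 CPM in Control and 12327, 11656, 8076 and 9117 CPM in Mta123KO. These overlap, since the first library of Mta123KO line 2 fell below 2 Control libraries (log2 fold change 0.42 ± 0.16, adjusted p = 0.0454, edgeR). The call was lost without Mta123KO line 1, where the log2 fold change was 0.12 (adjusted p = 0.282), and when any of libraries 1_1, 1_2 or 2_2 was left out of both groups. It was also lost without either Control line, with an adjusted p of 0.151 and 0.199. Of the other complex IV genes, mt-Co2, which carries the copper site that receives electrons from cytochrome c, had log2 fold changes of 0.88 and 0.85, and mt-Co3 0.41 and 0.88. The complex V genes mt-Atp8 and mt-Atp6 both had 0.61 under the 2iL label and 0.93 and 0.95 under the 48 h label. mt-Cytb, the single complex III gene, had 0.96 and 1.11.

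**Figure D2:**
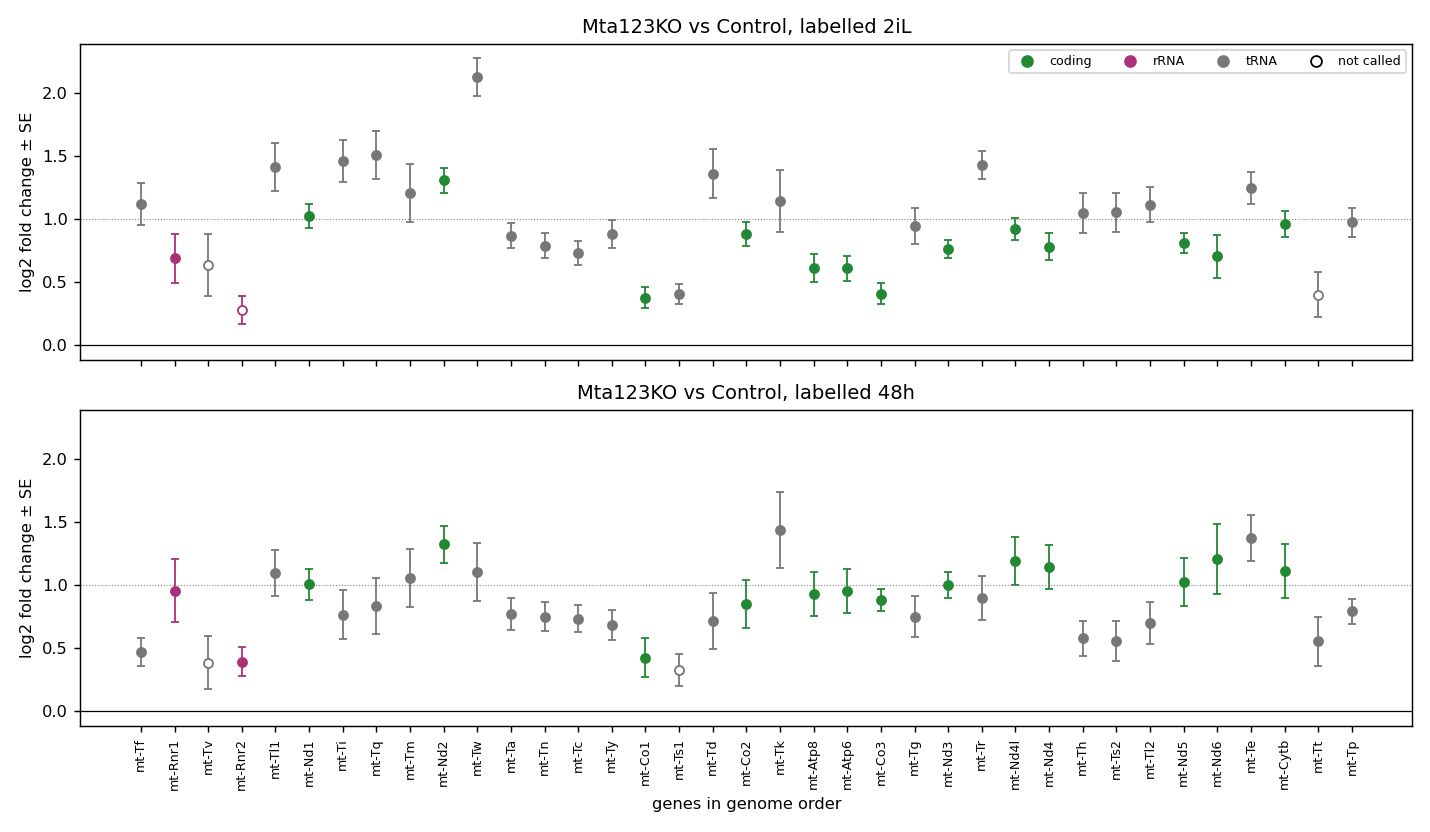
Log2 fold change (± SE) of Mta123KO against Control for the 37 genes in genome order, under each culture label, coloured by class, with open symbols for genes not called. Every gene lies above 0 in both panels, mt-Tw is the highest under the 2iL label, and mt-Co1 and mt-Rnr2 are among the lowest in both.

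The make-up of the mitochondrial coding counts also differed between genotypes. mt-Co1 supplied 44.2 to 47.1% of these counts in Control libraries labelled 2iL and 37.2 to 39.4% in Mta123KO libraries. For the 48 h label the ranges were 44.6 to 48.3% and 34.1 to 37.1%. mt-Co1 made up less of the pool in every mutant library, under both labels. mt-Nd2 supplied 4.18 to 5.11% in Control and 7.11 to 7.95% in Mta123KO under the 2iL label, and 4.35 to 5.58% and 6.86 to 8.12% under the 48 h label. mt-Nd1 supplied 7.24 to 8.8% and 10.5 to 11.3% under the 2iL label, without overlap. Among libraries labelled 48 h its ranges, 8.44 to 10.3% and 10.1 to 13.5%, overlapped. These shares sum to 100% within a library, so a lower share of one gene goes with higher shares of others, and no test was run on them.

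**Figure D3:**
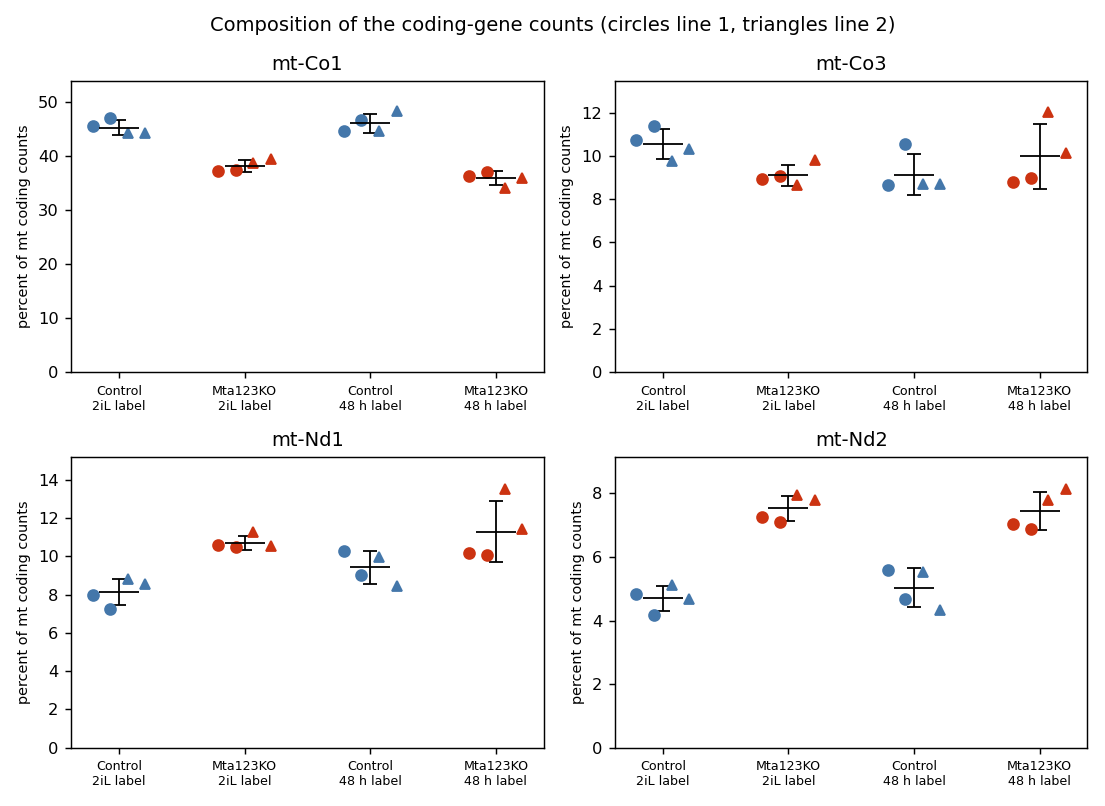
Percent of the counts on the 13 coding genes that fell on mt-Co1, mt-Co3, mt-Nd1 and mt-Nd2 in each library (circles line 1, triangles line 2, bars mean ± SD of 4 libraries). The Mta123KO libraries lie below the Control libraries for mt-Co1 and above them for mt-Nd2 under both labels.

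Levels per length separated the coding genes in all groups. On the scale of mean CPM per kilobase, mt-Co1 was the highest of the 13 in Control libraries labelled 2iL, at 4216, followed by mt-Atp8 at 2359.7, mt-Co3 at 1938 and mt-Atp6 at 1582. The lowest were mt-Nd5 at 356, mt-Nd4l at 338 and mt-Nd4 at 390.2. In Mta123KO libraries of that label the lowest were the same genes, at 627, 644 and 675 CPM per kilobase. These levels are those of the annotated genes, and the overlap of mt-Atp8 with mt-Atp6 and the nuclear copies described below bear on the order.

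mt-Nd6, a complex I subunit and the only coding gene on the other strand, was listed at 309.7, 271, 324 and 309.8 CPM in Control and 457, 339, 642 and 554 CPM in Mta123KO libraries labelled 2iL. The mutant libraries of line 2 were higher than those of line 1, and all lay above Control (log2 fold change 0.71 ± 0.17, adjusted p = 0.00738, edgeR). The call was lost without either Control line (adjusted p = 0.0782 and 0.0594). Under the 48 h label Control libraries held 458, 243, 247 and 459 CPM and Mta123KO libraries 971, 968, 589.7 and 658 CPM (log2 fold change 1.21 ± 0.28, adjusted p = 0.00592, edgeR). Within each Control line 1 library stood well above the other, and all stayed below every mutant library. As a share of the coding counts, mt-Nd6 was 2.11 ± 0.187% in Control and 2.22 ± 0.488% in Mta123KO under the 2iL label, with overlapping ranges (exact permutation test, p = 0.714). For the 48 h label the shares were 2.04 ± 0.598% and 2.76 ± 0.268% (exact permutation test, p = 0.114). Its ranges overlapped there too.

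The 2 rRNA genes took most of the mitochondrial counts, with mt-Rnr2 far above mt-Rnr1. Together they made up 8.9, 9.24, 9.5 and 9.07% of gene counts in Control and 12.6, 12, 11.6 and 9.24% in Mta123KO libraries labelled 2iL. The second library of Mta123KO line 2 lay inside the Control range (exact permutation test, p = 0.0857, adjusted 0.163). With the 48 h label the shares were 9.39, 9.0, 10.2 and 9.26% and 14.6, 13.2, 10.7 and 11.6%, without overlap (exact permutation test, p = 0.0286, adjusted 0.0776). The ratio of the mean shares was 1.24 and 1.32. Whether rRNA was depleted from these libraries is not given in the sources used here. The rRNA values are therefore shares of counts and cannot be read as rRNA abundance. mt-Rnr2, the large-subunit rRNA, held 84542, 87381, 89888 and 85363 CPM in Control and 115822, 110607, 109035 and 87217 CPM in Mta123KO libraries labelled 2iL, which did not pass the test (log2 fold change 0.28 ± 0.11, adjusted p = 0.0638, edgeR). It passed without Mta123KO line 2, at a log2 fold change of 0.38 (adjusted p = 0.000889), with DESeq2 (adjusted p = 0.0440), without TMM factors (0.0435) and without library 2_2 (0.0269). In libraries labelled 48 h it was 88469.8, 84943, 96655 and 87076 CPM in Control and 130947, 120525, 100440.0 and 108300.0 CPM in Mta123KO (log2 fold change 0.39 ± 0.12, adjusted p = 0.020, edgeR). This call was lost without either Control line (adjusted p = 0.126 and 0.0703) and when library 1_1, 1_2 or 2_2 was left out of both groups.

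mt-Rnr1, the small-subunit rRNA, lies just upstream of mt-Rnr2. Its levels labelled 2iL were 4473, 5042, 5068 and 5303 CPM in Control and 10037, 9580.3, 7377 and 5134 CPM in Mta123KO libraries. Line 1 of the mutant was highest, and 1 library of line 2 fell inside the Control range (log2 fold change 0.69 ± 0.20, adjusted p = 0.0161, edgeR). Among libraries labelled 48 h the levels were 5472, 5024, 5607 and 5503 CPM and 14889, 11839, 6745 and 7403 CPM, without overlap (log2 fold change 0.96 ± 0.25, adjusted p = 0.0107, edgeR). Without Mta123KO line 1 the 2iL log2 fold change was 0.31 and not called (adjusted p = 0.0710), and the call was also lost without either Control line (adjusted p = 0.116 and 0.0913) and when library 1_1, 1_2 or 2_1 was left out. The call under the 48 h label was lost without either Control line (adjusted p = 0.0918 and 0.0772) and when library 1_2 was left out. mt-Rnr1 made up 5.24% and 5.59% of the rRNA counts in Control lines 1 and 2 labelled 2iL, against 7.97% and 5.95% in Mta123KO. The corresponding line means under the 48 h label were 5.70% and 5.71%, and 9.58% and 6.35%. These too are shares of counts, with any rRNA depletion unknown.

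The tRNA genes rose too, and more of them exceeded a log2 fold change of 1 under the 2iL label (13 of 22) than under the 48 h label (5 of 22). They held 0.0695, 0.0673, 0.0733 and 0.0632% of gene counts in Control and 0.129, 0.112, 0.138 and 0.12% in Mta123KO libraries labelled 2iL, a ratio of means of 1.83. For the 48 h label the shares were 0.104, 0.0823, 0.091 and 0.0809% and 0.15, 0.146, 0.135 and 0.153%, a ratio of 1.63. Neither pair of ranges overlapped (exact permutation tests, p = 0.0286 each, adjusted 0.0776). By edgeR 20 of 22 were called higher under each label and none lower, with median log2 fold changes of 1.09 and 0.75. Of all genes tested, 27.1% and 26.6% were called higher, and 13.2% and 14.1% were called with a log2 fold change above 1. mt-Tv (valine), which lies between the rRNA genes, was called under neither label (log2 fold change 0.63 ± 0.25, adjusted p = 0.0568, edgeR, under the 2iL label). mt-Tt missed the threshold under the 2iL label (log2 fold change 0.40 ± 0.18, adjusted p = 0.0894, edgeR) and mt-Ts1 under the 48 h label (log2 fold change 0.33 ± 0.13, adjusted p = 0.0552, edgeR). mt-Tv was called without Mta123KO line 1, under both labels, with log2 fold changes of 1.01 and 0.67, and under the 2iL label also by DESeq2 (adjusted p = 0.0402), with ERCC scaling (0.0489), in 1 fit of all libraries (0.0473) and without library 1_2 (0.0474).

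mt-Tw had the largest fold change of all 37 genes under the 2iL label. Its Control libraries held 8.33, 6.18, 8.07 and 6.0 CPM and its Mta123KO libraries 34.7, 29, 34.8 and 26.7 CPM, with a wide gap between the groups (log2 fold change 2.12 ± 0.15, adjusted p = 1.24e-05, edgeR). Under the 48 h label the Control values were higher, at 26.2, 14.1, 20.7 and 12.1 CPM, and the Mta123KO values were 33.7, 34.1, 40.7 and 47.1 CPM (log2 fold change 1.1 ± 0.23, adjusted p = 0.00362, edgeR). The gap was smaller there with the Control libraries closer to the mutant ones, the first of line 1 closest. Of the 5 tRNA genes with the smallest adjusted p under the 2iL label, mt-Tr (arginine) had log2 fold change 1.43 ± 0.11, adjusted p = 1.7e-05, mt-Te (glutamate) log2 fold change 1.25 ± 0.13, adjusted p = 7.4e-05, mt-Ta (alanine) log2 fold change 0.87 ± 0.10, adjusted p = 0.000112, and mt-Ti log2 fold change 1.46 ± 0.17, adjusted p = 0.000135 (edgeR). With the 48 h label the 5 were mt-Tp (proline, 0.79), mt-Te (1.37), mt-Tc (cysteine, 0.73), mt-Tn (asparagine, 0.75) and mt-Ta (0.77 on the log2 scale), with edgeR adjusted p from 0.000193 to 0.000945. In libraries labelled 48 h these calls rest on all gene counts as the reference: with ERCC spike-in scaling 7 of 22 tRNA genes were called. Without Control line 2, 11 of 22 were. Over all genes, calls higher went from 5608 to 3442 with ERCC scaling and to 4148 without Control line 2.

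Most tRNA counts lay on minus-strand genes. The 8 minus-strand tRNA genes held 72.9 to 79.3% of tRNA counts in Control libraries labelled 2iL and 66.6 to 70.4% in Mta123KO libraries, and 65.2 to 71.9% against 64.7 to 66.8% under the 48 h label. The median log2 fold change was 0.88 for the 8 minus-strand and 1.13 for the 14 plus-strand tRNA genes under the 2iL label, and 0.76 and 0.73 under the 48 h label. The most abundant was mt-Ts1, at 216 to 249.7 CPM in Control libraries labelled 2iL, and the least abundant was mt-Td (aspartate), at 0.941 to 1.08 CPM. The share on the minus strand and the values of mt-Ts1, which lies opposite the end of mt-Co1, depend on how reads were assigned to strands. The strand setting of the counting is not given in the sources used here, so sense and antisense reads cannot be told apart.

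Of the 13 coding genes, 7 have an annotated copy in the nuclear genome, in a stretch of chromosome 1 (GRCm38) where 7 pseudogenes lie in a row. Gm28437 (chr1:24613189-24613971), the copy of mt-Co3, shares all of its 31-base words with mt-Co3. Gm10222, Gm10925 and Gm28661, the copies of mt-Nd4l, mt-Atp6 and mt-Co2, likewise share all of theirs, and so does Gm28439 with part of mt-Nd4. Gm28438, the copy of mt-Nd3, shares 99% and Gm29216, which covers part of mt-Co1, 97.2%. The counts listed for these copies went with those of the members. In the 16 libraries Gm28437 was listed at 0.891 to 1.01 times the count of mt-Co3, Gm10925 at 0.97 to 1.01 times that of mt-Atp6, and Gm28661 at 0.978 to 1.02 times that of mt-Co2. All 7 copies were called higher in Mta123KO under the 2iL label and all but Gm29216 under the 48 h label, with median log2 fold changes of 0.73 and 0.96. Those with the largest changes were Gm10222 (0.91 and 1.21), Gm28439 (0.89 and 1.20), Gm28661 under the 2iL label (0.87) and Gm28438 under the 48 h label (1.0 on the log2 scale). How reads that align to several places were handled is not given in the sources used here, so counts of a member and its copy cannot be told apart and the levels of these 7 genes are uncertain. The 6 coding genes without an annotated copy (mt-Nd1, mt-Nd2, mt-Atp8, mt-Nd5, mt-Nd6 and mt-Cytb) were all called higher under both labels, with median log2 fold changes of 0.89 and 1.07. Of these, mt-Atp8 shares its last 43 bases with mt-Atp6 and lies between mt-Atp6 and mt-Co2. The copies of those neighbours end at chr1:24614651 and start at chr1:24614885. Whether the stretches between the annotated copies match mt-Atp8 or tRNA genes was not tested, so their levels may be uncertain too. Adding each copy's counts to its member left 13 of 13 coding genes called under each label. Since the counts of the copies went with those of their members, this sum could hardly change the calls. It cannot show which genome the reads came from.

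**Figure D4:**
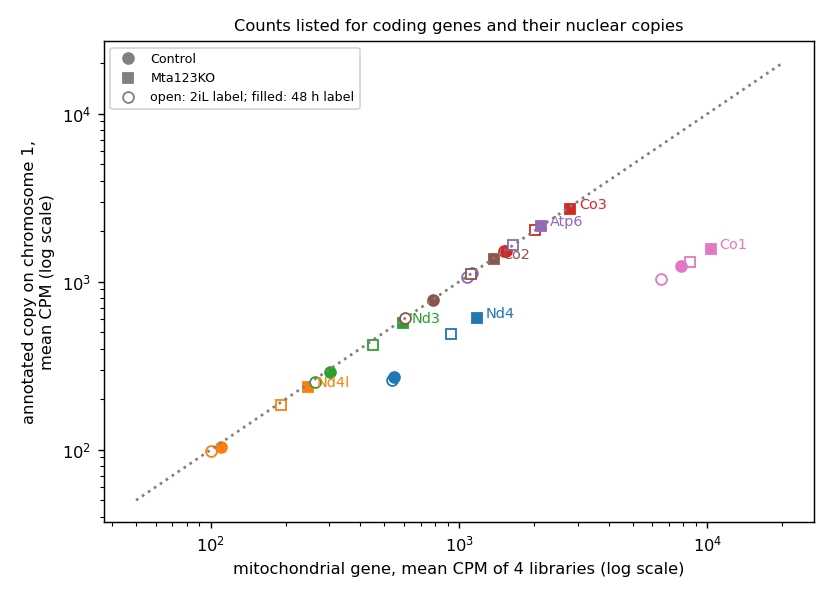
Mean CPM (4 libraries, log scales) of 7 coding genes on the x axis and of their annotated copies on chromosome 1 on the y axis, for each genotype (circles Control, squares Mta123KO) and label (open 2iL, filled 48 h), with the line of equality dotted. The copies of Nd4l, Nd3, Co2, Atp6 and Co3 lie on or near the line in all 4 groups, and the partial copies of Nd4 and Co1 below it.

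Between cultures, 20 of 37 mitochondrial genes were called higher under the 48 h label in Control and 5 of 37 in Mta123KO, and none lower in either. Over all genes tested, 29.5% and 12.4% were called higher. These fits did not take the line into account, and counts from fits that did are given below for both genotypes. In Control, 7 of 13 coding genes were called higher and none lower (edgeR), against 29.5% higher and 29% lower of 21240 genes (6261 and 6158 genes, or 5993 and 3664 with ERCC scaling, which moved the median of all genes by 0.18), with a median log2 fold change of 0.23. mt-Nd1 rose by 0.47 ± 0.10 (adjusted p = 0.00234, edgeR) and mt-Co2 by 0.39 ± 0.08 (adjusted p = 0.00194, edgeR). Without replicate 1_1 in both groups, 4 were called. The coding share was 1.7 ± 0.151% against 1.44 ± 0.0498% under the 2iL label, without overlap (exact permutation test, p = 0.0286, adjusted 0.0776). For tRNA genes 13 of 22 were called higher, with the largest changes in mt-Tw (log2 fold change 1.37) and mt-Tf (phenylalanine, 1.04). Neither rRNA gene was called (adjusted p = 0.0782 for mt-Rnr1 and 0.404 for mt-Rnr2, edgeR).

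In Mta123KO cells 3 of 13 coding genes (mt-Nd1, mt-Nd3 and mt-Co3) and 2 of 22 tRNA genes (mt-Tl1, leucine, and mt-Tt) were called higher under the 48 h label, against 12.4% higher and 10% lower of 21505 genes. The median log2 fold change was 0.41 for the coding and 0.20 for the tRNA genes, 6 of which had values below 0 that did not pass. mt-Co3 rose from 2051, 1877, 2092 and 2101 CPM to 2986, 2816, 2856 and 2569 CPM (log2 fold change 0.50 ± 0.08, adjusted p = 0.00388, edgeR). Its lowest 48 h value was above its highest 2iL value, and both lines rose. Lines are shared by the 2 cultures, and with the line as a replicate block 11 of 13 coding and 7 of 22 tRNA genes were called. With the replicate number as a block these were 8 and 6. Over all 21505 genes, calls higher also rose, from 2662 to 5391 with the line block and 4882 with the replicate block. In Control the line block left the coding count at 7 and raised the tRNA count to 18, and the replicate block gave 20. Over all 21240 genes in Control, 6707 and 6810 were called higher with these blocks, against 6261 without. The coding share rose from 2.18% to 3.27% in line 1 and from 2.28% to 2.45% in line 2. Leaving out replicate 1_1 or 1_2 left 1 coding gene called, leaving out 2_1 gave 6, and with ERCC scaling or with lines summed none was called. Calls higher over all genes fell as well, to 1474 to 1810 when 1 replicate was left out. They fell to 1478 with ERCC scaling and to 0 with lines summed.

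The genotype effect differed between the labels for 3 of the 37 genes in a test of the interaction, which called 12.5% of 22973 genes higher and 10.6% lower (2879 and 2427 genes, or 1383 and 1981 with ERCC scaling, which moved the median of all genes by -0.22). The increase of mt-Co3, 0.41 under the 2iL label and 0.88 under the 48 h label, was larger under the latter (interaction 0.48 ± 0.12, adjusted p = 0.00765, edgeR). Its Control levels were 1554, 1673, 1437 and 1414 CPM under the 2iL label and 1649, 1647, 1416 and 1479 CPM under the 48 h label, and overlap. mt-Tw (-1.01 ± 0.29, adjusted p = 0.0206, edgeR) and mt-Tf (-0.64 ± 0.21, adjusted p = 0.0349, edgeR) had smaller genotype effects under the 48 h label. mt-Tf stood at 7.47, 6.93, 8.4 and 9.14 CPM in Control and 20.4, 20.6, 15.9 and 12.9 CPM in Mta123KO labelled 2iL, and at 16.5, 14.9, 17.3 and 16.3 CPM and 25.6, 22, 19.4 and 21.4 CPM labelled 48 h. The interaction of mt-Co3 was lost when replicate 1_2 was left out or with ERCC scaling (adjusted p = 0.454), that of mt-Tf with ERCC scaling (0.0726), and those of both tRNA genes when 1_1, 1_2 or 2_1 was. Among the genes that did not pass are 12 of 13 coding, both rRNA and 20 of 22 tRNA genes.

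In the single mutants few coding genes were called. In Mta1_del/del cells none of the 13 was called in either direction (edgeR; 0% higher and 0% lower of 14561 genes tested), none had an unadjusted p under 0.05, and DESeq2 called none. Their median log2 fold change was -0.19. Coding genes took 2.69, 3.73 and 2.78% of gene counts in the mutant and 3.37, 4.66 and 2.61% in the parent. The second library of each genotype was the highest, and the ranges overlap (exact permutation test, p = 0.70). Same-numbered Mta1 libraries deviated together, and the fit with the replicate block also called 0 coding genes. In these small groups 3 against 3 libraries cannot go below an exact p of 0.10.

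In Mta2_KO cells 2 of 13 coding genes were called lower and none higher (edgeR; 24.3% and 23.5% of 15602 genes), with a median log2 fold change of -0.11. mt-Nd6 was listed at 890.4, 503 and 719 CPM in the mutant and 964, 999.7 and 1031 CPM in wild type, all mutant libraries lying below (log2 fold change -0.54 ± 0.17, adjusted p = 0.0281, edgeR). The call was lost without replicate 3 (adjusted p = 0.0783). mt-Co1 was at 13431, 12631 and 12618 CPM and 14068, 13708 and 13924 CPM (log2 fold change -0.15 ± 0.03, adjusted p = 0.00362, edgeR). This small difference had no overlap between the groups. How large a share of all genes separates in this way, with 3 libraries against 3, was not counted. Neither gene was called in 1 fit of all 18 libraries (adjusted p = 0.276 and 0.678). The coding share was 3.61, 2.99 and 3.24% in the mutant and 3.52, 3.6 and 3.44% in wild type (exact permutation test, p = 0.40).

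In Mta3_del/del cells mt-Nd1 and mt-Nd3 were called higher and no coding gene lower (edgeR; 8.32% and 7.84% of 15522 genes). The median log2 fold change of the 13 was 0.34. mt-Nd3, a small membrane subunit of complex I, was at 559, 464 and 551 CPM in the mutant and 352, 384 and 338 CPM in the parent (log2 fold change 0.64 ± 0.12, adjusted p = 0.0206, edgeR). The groups did not overlap for it, and the share of all genes without overlap was not counted here either. mt-Nd1 was at 5520.3, 3782 and 3891 CPM and 3053, 3404 and 2376 CPM, also without overlap (log2 fold change 0.66 ± 0.19, adjusted p = 0.0465, edgeR). Both calls were lost without replicate 1 (adjusted p = 0.274 for mt-Nd1 and 0.181 for mt-Nd3) and without replicate 3 (0.162 and 0.126), while DESeq2 called 5 coding genes. Over all genes DESeq2 called 1922 of 16060 higher. Without replicate 1 the coding median fell to 0.11. The coding share was 3.91, 3.22 and 3.2% against 3.28, 3.12 and 3.12% (exact permutation test, p = 0.30). The single-mutant comparisons use other controls than the triple mutant, from libraries that list protein-coding genes almost alone, so effects were not compared by a test.

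**Figure D5:**
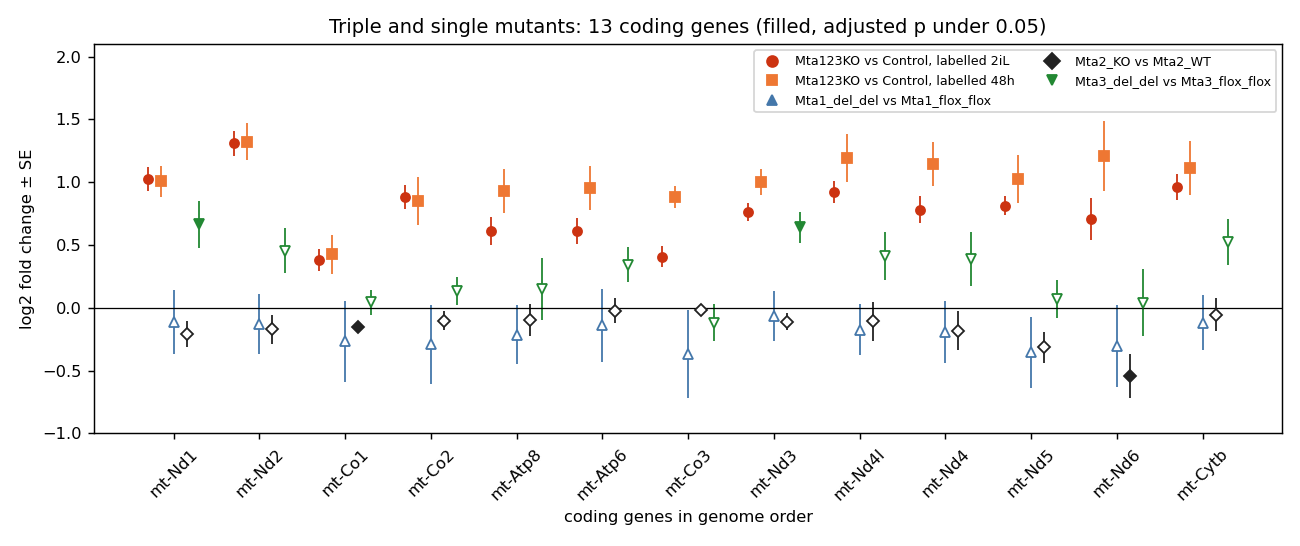
Log2 fold change (± SE) of the 13 coding genes in the 2 triple-mutant and 3 single-mutant comparisons, filled where the adjusted p is under 0.05. All points of the triple mutant are filled and above 0, the Mta1 and Mta2 points lie below 0, and 12 of 13 Mta3 points lie above 0, with 2 filled.

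The sets of libraries differed in the make-up of the coding counts. mt-Atp8 supplied 3.18 to 3.47% of coding counts in Control libraries labelled 2iL but 0.233 to 0.356% in Mta1_flox/flox and 0.123 to 0.172% in Mta2 wild-type libraries, and mt-Nd4l 0.614 to 0.741% against 0.178 to 0.215% and 0.133 to 0.187%. These genes are 204 and 297 bases long and overlap mt-Atp6 and mt-Nd4. The library kits may also differ between the sets. Levels were therefore compared only within a set.

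Nuclear genes that act on mitochondrial DNA and RNA were called in both directions in Mta123KO cells. All-gene shares to read these lists against are 27.1% higher and 24.2% lower under the 2iL label and 26.6% and 23.4% under the 48 h label. Of 21 genes of mitochondrial DNA maintenance and transcription, 4 were called higher and 6 lower under the 2iL label, and 2 and 6 under the 48 h label (medians -0.04 and -0.13). Polrmt, the mitochondrial RNA polymerase, had log2 fold changes of 0.07 ± 0.12, adjusted p = 0.671 (edgeR) under the 2iL label and 0.02 ± 0.11, adjusted p = 0.917 (edgeR) under the 48 h label. For Tfam they were 0.25 ± 0.07, adjusted p = 0.0172 (edgeR), a call, and 0.05 ± 0.10, adjusted p = 0.714 (edgeR). Twnk, the replicative helicase, had 0.04 and -0.08, and Polg, the DNA polymerase, 0.02 and 0.05, none of which passed. Largest among the called genes were the decreases of the primase-polymerase Primpol (-0.95 and -0.90), the rRNA methyltransferase Tfb1m (-0.80 and -0.59) and, under the 2iL label, the single-strand binding protein Ssbp1 (-0.57). Among libraries labelled 48 h the mitochondrial topoisomerase gene Top1mt rose (0.59), at 4.44 against 3.0 CPM.

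Of 29 matched genes of mitochondrial RNA processing, stability and decay, 5 were called higher and 12 lower under the 2iL label and 4 and 12 under the 48 h label (medians -0.09 and -0.11). Lrpprc, which stabilises mitochondrial mRNAs, was called higher under both labels, with log2 fold changes of 0.34 ± 0.11, adjusted p = 0.0251 and 0.44 ± 0.12, adjusted p = 0.0138 (edgeR). Pnpt1, the mitochondrial polynucleotide phosphorylase that degrades RNA, was called lower under both, with -0.62 ± 0.08, adjusted p = 0.000188 and -0.55 ± 0.06, adjusted p = 0.000151 (edgeR). It fell from 80.4 ± 3.47 CPM in Control to 52.8 ± 4.91 CPM (SD, n = 4) under the 2iL label. Hsd17b10, a subunit of mitochondrial RNase P, had -0.94 and -0.77. Also among the largest called decreases were the tRNA-modification genes Gtpbp3 (-0.97) and Mto1 (-0.64) under the 2iL label, and 1110008L16Rik (-0.67) and the RNA-granule protein gene Grsf1 (-0.64) under the 48 h label.

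Of 78 genes for mitochondrial ribosomal proteins, 7 were called higher and 29 lower under the 2iL label and 4 and 31 under the 48 h label (medians -0.20 and -0.16). The largest called changes were decreases of Mrpl34 (-1.45 and -0.60), Mrpl40 (-0.87 and -0.84), Mrpl57 under the 2iL label (-0.85) and Mrpl47 under the 48 h label (-0.64). These shares of lower genes, 29 and 31 of 78, compare with 24.2% and 23.4% among all genes tested. Of 10 biogenesis regulators tested (of 12 listed), 4 were called higher and 2 lower under the 2iL label and 1 and 3 under the 48 h label. The largest changes under the 2iL label were in the transcription factors Myc (-1.97) and Esrrb (1.37), the latter also one of the naive-state markers, and the coactivator gene Ppargc1b (0.58). Under the 48 h label they were Mycn (-0.68), Gabpa (-0.63) and Pprc1 (-0.33). In the single mutants these lists had no called gene in Mta1_del/del. In Mta2_KO, where 23.5% of all genes were called higher and 24.3% lower, 11 of 77 ribosomal protein genes tested were called higher and 17 lower, 4 and 8 of 29 RNA processing genes, 3 and 3 of 21 DNA maintenance genes and 3 and 2 of 11 regulators. In Mta3_del/del, against 8.32% and 7.84% of all genes, 14 of 77 ribosomal protein genes, 6 of 29 RNA processing genes and 3 of 11 regulators were called higher and none lower, and of 21 DNA maintenance genes 1 was called lower and none higher. Over all genes this comparison called 0 higher and 2 lower without replicate 1, and 1 and 1 without replicate 3.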

How the data were processed

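RNA of 34 mouse ES cell samples was sequenced in 2 sets, 16 libraries of Control and Mta123KO cells and 18 of single mutants and their controls. The deposited values are read counts per gene, 1 file per library, which the authors made without normalization. Per the labels' processing notes and the study's methods, RNA was purified on RNeasy columns with DNase, libraries were made with a directional or a stranded total-RNA kit (which set used which is not given in the sources used here), reads were trimmed with Trim Galore, aligned to GRCm38 (mm10) with TopHat2 and counted with featureCounts on an Ensembl annotation. rRNA depletion, the strand setting and the treatment of multiply aligned reads are likewise not given. Groups and replicate numbers were taken from the sample labels.

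CPM are counts per 1000000 gene counts, with ERCC spike-ins left out and no further scaling. Symbols, classes and coordinates came from GENCODE vM21, which matched 48349 of 48709 and 21852 of 22018 identifiers. Counts were tested with edgeR 4.0.16 in R 4.3.3 (TMM, filterByExpr, quasi-likelihood test, each fit holding the compared groups alone, Benjamini-Hochberg adjustment over all genes). SE is the log2 fold change divided by the root of F. TMM factors ran from 0.942 to 1.04. Shares were compared by exact two-sided permutation tests with scipy 1.17.1, adjusted over 19 tests. The depth, 13105820 to 57602285 gene counts, limits mainly the rarest members (mt-Td, 42 to 183 counts). Elsewhere the spread between libraries does. Counting intervals were not used.

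The 37 members, the gene lists (mitochondrial DNA maintenance and transcription, RNA processing, ribosomal proteins, biogenesis regulators, nuclear copies) and the rule for named genes (class sums, both rRNAs, mt-Nd6, the coding genes with the highest and lowest fold change, up to 5 tRNA genes of smallest adjusted p, 3 largest called changes per list and 6 fixed nuclear genes) were chosen with earlier results of these data known. Alternatives were DESeq2 1.42.0, totals and TMM without mt- genes, no TMM, ERCC scaling, no filter, replicate and line blocks, 1 fit of all libraries, summed lines, a fold threshold, other denominators and leaving out each replicate number. Leaving out 1 line of 1 genotype and adding nuclear copies were added after seeing the data. The edgeR steps were also tested on simulated data.

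Same-line libraries differed beyond counting noise (chi-square per degree of freedom 6.32 to 19.4, against 17.6 to 112.8 between lines), so none was taken as a repeat deposit of another, and each was used as a sample as labelled. This does not tell separate cultures from repeat preparations. Whether numbers pair samples was checked by correlating deviations of same-numbered libraries from their group means. In the culture comparisons these were 0.398 to 0.483 (Control) and 0.652 to 0.705 (Mta123KO), and in Mta1 0.457 to 0.746. Over all pairs of a shared line, same-numbered ones included, the mean was 0.359 in Control and 0.679 in Mta123KO. For the same number it was 0.428 and 0.683. Between cultures, a shared line therefore cannot be told apart from a pairing of samples. In the genotype comparisons the same-numbered correlations were -0.277 to 0.0683, and in Mta2 and Mta3 at least 1 pair was below 0, so these share only a number. No sample was left out.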

Additional observations from a re-analysis of the deposited data

Results flagged for a closer look

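For 3 of the 37 genes, 1 higher and 2 lower, the genotype effect differed between the culture labels in the test of the interaction. That test called larger shares of all 22973 genes, 12.5% higher and 10.6% lower. mt-Co3 rose more in Mta123KO under the 48 h label, with a log2 interaction of 0.48. mt-Tf and mt-Tw rose less there, with log2 interactions of -0.64 and -1.01. With lines summed none of the 3 passed (edgeR adjusted p = 0.222, 0.309 and 0.0825). Exchanging the culture labels would turn the sign of all 3. No library stood apart from its group in the 36 sets of 4 class shares or gene levels tested for an outlying library. With 4 libraries from 2 lines in each set, that test could flag only a very large gap.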

How the results depend on the processing

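Each value was recomputed with 1 choice changed at a time, and no called value changed direction. Of values that had not passed, the mt-Nd6 share of coding counts between genotypes under the 2iL label (ratio 1.05) was 0.994 without replicate 2_1. Between cultures in Control that share (0.967) was 1.002 without 1_2 and 1.06 without 2_1, and the rRNA share (1.03) was 0.989 against protein-coding counts. Of the recomputed counts of called genes, 159 stayed within 1.5 times the value reported, 11 rose and 41 fell, and of the medians 165 moved by less than the spread and 10 by more. All 103 recomputed ratios of shares moved by less than the spread. Of the recomputed fold changes of single genes, 667 kept their side of the threshold, 15 newly passed it and 94 no longer did.

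Under the 2iL label, Mta123KO against Control gave 8 coding genes with lines summed, and 2 coding and 13 tRNA genes above the fold threshold. Under the 48 h label it gave 7 coding and 11 tRNA genes with lines summed, 8 and 5 above the fold threshold, 7 tRNA genes with ERCC scaling and 11 without Control line 2. There the coding median was 0.81 with ERCC scaling, 0.80 without Mta123KO line 1 and 1.23 without line 2, and the tRNA median 0.53 with ERCC scaling. Calls higher over all genes also fell with summed lines, ERCC scaling, the fold threshold and without Control line 2, as given above.

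Between cultures in Control, coding genes called were 2 in 1 fit of all libraries and 0 above the fold threshold, with 4 to 6 when 1 replicate was left out. The coding median was 0.43 with ERCC scaling and 0.17 to 0.33 without 1 replicate. The tRNA count was 20 with the replicate block and 2 above the fold threshold, and the tRNA median 0.59 with ERCC scaling. In Mta123KO the coding count was 5 with DESeq2, 0 with ERCC scaling, 8 with the replicate block, 11 with the line as replicate block, 7 in 1 fit, 0 with lines summed and 0 above the fold threshold, and 1 to 6 without 1 replicate. The tRNA count was 0, 6, 7, 0 and 0 with ERCC scaling, the replicate block, the line block, lines summed and the fold threshold, and 0 to 3 without 1 replicate. Over all genes in Mta123KO, 3248 were called higher with DESeq2, 3774 in 1 fit and 1041 above the fold threshold. All-gene counts for the other settings are given with the culture comparison. For the interaction, ERCC scaling, summed lines and the fold threshold left 0 coding genes and 1, 0 and 1 tRNA genes, with ERCC medians of 0.00996 and -0.47, and leaving out 1 replicate gave 0 to 1 coding and 0 to 2 tRNA genes.

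In Mta2_KO 0 genes were lower in 1 fit or above the fold threshold, and 1 to 4 without 1 replicate. In Mta3_del/del 5 were higher with DESeq2, 1 without TMM and 0 above the fold threshold, 0 to 4 without 1 replicate, with medians of 0.11 to 0.48. Other results of the replicate block stayed within 1.5 times the reported counts. The genotype comparisons are not paired, and the block there gave 13 and 12 coding genes. The fold threshold can only lower a count, by construction. Between cultures, summing the lines left 5426 genes called higher and 5464 lower in Control, but 0 and 0 in Mta123KO. The cause of the summed-line counts and of the other changes was not tested. Whether depth, the spread between libraries or another limit matters most was not tested.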
